A study of Oncorhynchus mykiss with 18 samples.

Results

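The comparison described here set rainbow trout alevins exposed to the highest concentration of 17α-ethinylestradiol (EE2) analysed here, measured at 55.1 ng/L, against alevins kept in the solvent, 0.01% dimethyl sulfoxide (DMSO). It used 6 of the 18 libraries of the series, 3 per group, chosen by their labelled concentration. The series, by its title, was made for a short transcriptomic benchmark dose assay, and its other 12 libraries came from alevins at 1.13, 1.57, 6.22 and 16.3 ng/L. All alevins (Oncorhynchus mykiss) were exposed through the water from hatching for 96 hours, in flow-through tanks at 14 °C, and were sampled whole at 4 days post hatch. Each library was poly(A)-selected RNA of a pool of 3 alevins. The labels do not tell whether pools of one group shared a tank, so p-values measure the spread between pools. EE2 was dosed in the water; whether the exposed tanks also held DMSO is not stated in the labels used here.

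EE2 is the synthetic estrogen of contraceptive pills and binds the nuclear estrogen receptors. In egg-laying fish, estrogen acting on the liver switches on vitellogenins, the yolk precursors, and several zona pellucida proteins of the egg envelope, which in mature females travel by the blood to the ovary. The receptor gene esr1 is itself raised by estrogen in fish liver, and making large amounts of secreted protein loads the folding and export machinery of the endoplasmic reticulum. Males and juveniles make no eggs but can switch on the same liver genes when exposed, so these genes serve as markers of estrogen exposure.

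Total estimated counts were 13061428, 12658946 and 17076432 in solvent replicates A, B and C and 14833737, 16122131 and 13013502 at 55.1 ng/L. In a principal component analysis of the 6 libraries the first component (22.8% of the variance) separated the groups, with scores of 42.9 to 104 in solvent and -130.2 to -40.2 at 55.1 ng/L. The second component was nearly as large (21.0%) and spread the exposed pools, from 131 in replicate A to -105 in replicate C. Correlations of log CPM were 0.882 to 0.890 within groups and 0.876 to 0.890 between them. Levels are counts scaled to library size (CPM) of gene sums, or of single transcripts where the RefSeq gene table held no match, given in the order of replicates A, B and C. Log2 fold changes carry standard errors (SE) and Benjamini-Hochberg adjusted p-values of edgeR's quasi-likelihood test, fitted on all 18 libraries. The spread behind them was thus also estimated from the other 12 libraries, whose files set effective length in another way. What that does to the p-values was not tested. RNA came from whole bodies, so fewer cells of a type and less RNA per cell cannot be told apart.

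The alevins at 55.1 ng/L turned on genes that were silent or nearly so in solvent. Egg envelope and yolk genes and the estrogen receptor gene esr1 rose, as did a smaller set of transport, metabolic and protein-folding genes. Genes that fell included the lysosomal phospholipase pla2g15, the T cell gene themis, the plasma protein genes spp2 and ahsg2 and the bone collagen col10a1a. Of 46999 genes tested, 175 (0.372%) passed an adjusted p of 0.05, 107 of them higher (0.228%) and 68 lower (0.145%) at 55.1 ng/L. Of the higher genes, 38 rose more than 4-fold, 25 rose 2- to 4-fold and 44 less than 2-fold. Of the lower genes, 16 fell more than 4-fold, 16 fell 2- to 4-fold and 36 less than 2-fold. Only 36 of the 175 carry a gene symbol, 22 higher and 14 lower. Another 74 have a locus number alone and 65 are single transcripts outside the gene table.

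The number of genes called moved with single libraries. It was 87 without solvent replicate A (61 higher, 26 lower), 90 without solvent replicate B (65 higher, 25 lower) and 103 without 55.1 ng/L replicate B (71 higher, 32 lower), and 35 genes were lower without solvent replicate C. A fit of only the 6 libraries, with 4 residual degrees of freedom in place of 12, called 59 genes, 46 of them among the 175. Of the called genes with a symbol, that fit also called zp2.3, vtg3, esr1, pnp4b, cd209, miox, cnpy1, fd6d, bhmt, rbp4, ahsg2, pla2g15 and themis, and missed the others. Of the 175, 68 (53 higher and 15 lower) stayed past the threshold without each library in turn.

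**Figure D1:**
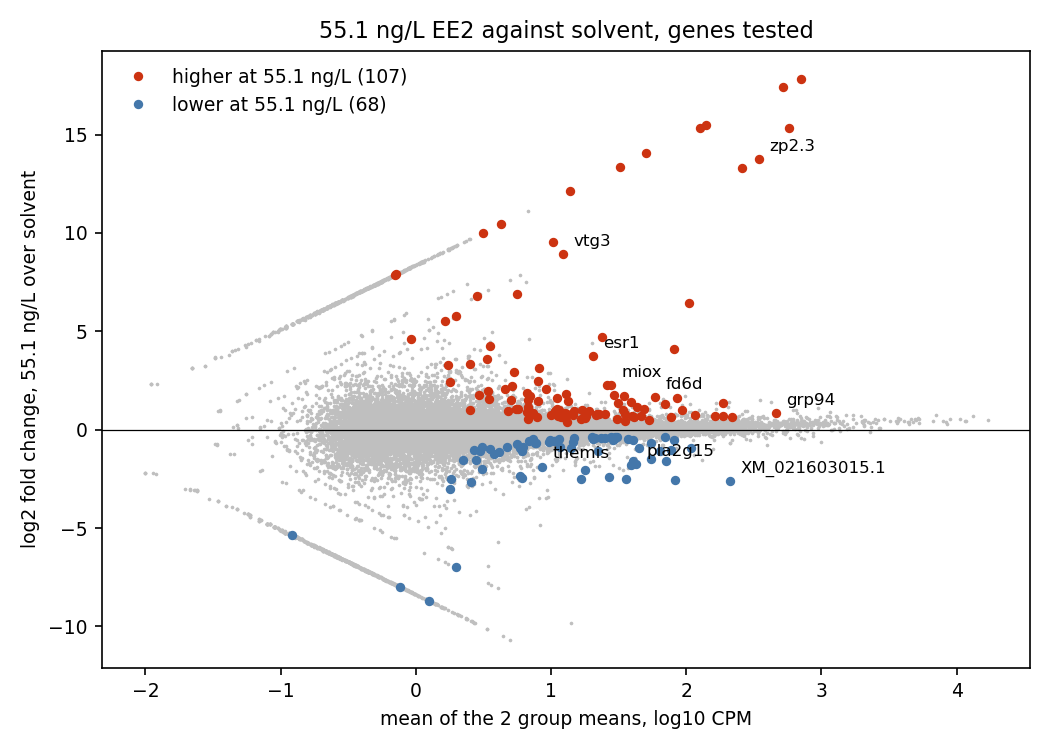
Log2 fold change at 55.1 ng/L over solvent (vertical axis) against the mean of both group means in log10 CPM (horizontal axis), one point per gene with reads in either group. Red points are the 107 higher and blue points the 68 lower genes past an adjusted p of 0.05, grey points the others. The oblique grey lines are genes with no reads in one of the groups.

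Among the receptor genes, 1 passed the threshold. The level of esr1, the nuclear estrogen receptor alpha, was 3.16, 2.15 and 3.19 CPM in solvent and 42.9, 35.4 and 35.5 CPM at 55.1 ng/L. The lowest exposed pool was thus far above the highest solvent pool, and esr1 rose by a log2 fold change of 3.73 (SE 0.25, adjusted p = 2.65e-06), between 3.58 and 3.83 without each library in turn. Of 9 tested members of the list of estrogen and other steroid receptors and their partners, esr1 alone passed the threshold (11.1%, against 0.228% of all genes tested higher). The median log2 fold change of the list was 0.09 against -0.01 over all genes tested. The beta receptor erb2 measured 3.43, 3.15 and 3.61 CPM in solvent and 3.94, 3.82 and 4.12 CPM at 55.1 ng/L, a log2 fold change of 0.22 (SE 0.17, adjusted p = 0.713). The other beta receptor, esr2a, was low and its groups overlapped, with 0.755, 0.932 and 1.30 CPM in solvent and 0.584, 0.461 and 1.15 CPM when exposed (log2 fold change -0.45, SE 0.43, adjusted p = 0.777). The membrane estrogen receptor gper1 (0.35, adjusted p = 0.821) and the estrogen-related receptor esrrd (0.09, adjusted p = 0.928) also missed the threshold. So did the glucocorticoid receptor genes nr3c1 (-0.36, adjusted p = 0.58) and LOC100136786, which lists nr3c1 as a synonym (0.27, adjusted p = 0.507), the coactivator ncoa1 (-0.08, adjusted p = 0.855) and the progesterone-binding membrane protein pgrmc1 (-0.01, adjusted p = 1).

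The call of esr1 rests on the gene sum, since no single transcript of it passed over all transcripts tested. Transcript XM_021598364.1 had the highest level of its transcripts at 55.1 ng/L, with 20.6, 16.4 and 23 CPM against 1.16, 1.29 and 1.95 CPM in solvent (log2 fold change 3.75, SE 0.95, adjusted p = 0.185 over 59811 transcripts). Transcript XM_021598362.1 measured 10.5, 10.4 and 12.3 CPM against 1.16, 0 and 0 CPM (log2 fold change 4.83, SE 1.67, adjusted p = 0.389). In the authors' deposited table, XM_021598364.1 has a log2 fold change of 3.77 and an adjusted p of 0.00179. There XM_021598362.1 (4.83, adjusted p = 0.117) and XM_021598363.1 (3.45, adjusted p = 0.605) do not pass.

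Egg envelope and yolk genes showed the widest change among genes with a symbol. The level of zp2.3, a zona pellucida protein of the egg envelope, was 0, 0.0717 and 0.0591 CPM in solvent and 809.8, 645 and 607 CPM at 55.1 ng/L. Its 2 solvent reads against 28243 exposed reads give a ratio of 15600 over effective library sizes (95% counting interval 4330 to 129000) and an adjusted p of 1.3e-07. The level of vtg3, a vitellogenin, was 0.0687, 0.0717 and 0 CPM in solvent and 31.5, 21.6 and 20.1 CPM at 55.1 ng/L, a ratio of 556 (95% counting interval 154 to 4600, adjusted p = 1.46e-06). The third tested member of the list, zp3d.1, did not pass and its groups overlapped, with 1.17, 1.58 and 1.30 CPM in solvent and 1.75, 0.989 and 1.57 CPM when exposed (adjusted p = 0.967). These intervals, and the lower bounds below, cover counting error only. Since the solvent level rested on at most 2 reads, the fitted fold change of these genes depends on the prior count and is not given.

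**Figure D2:**
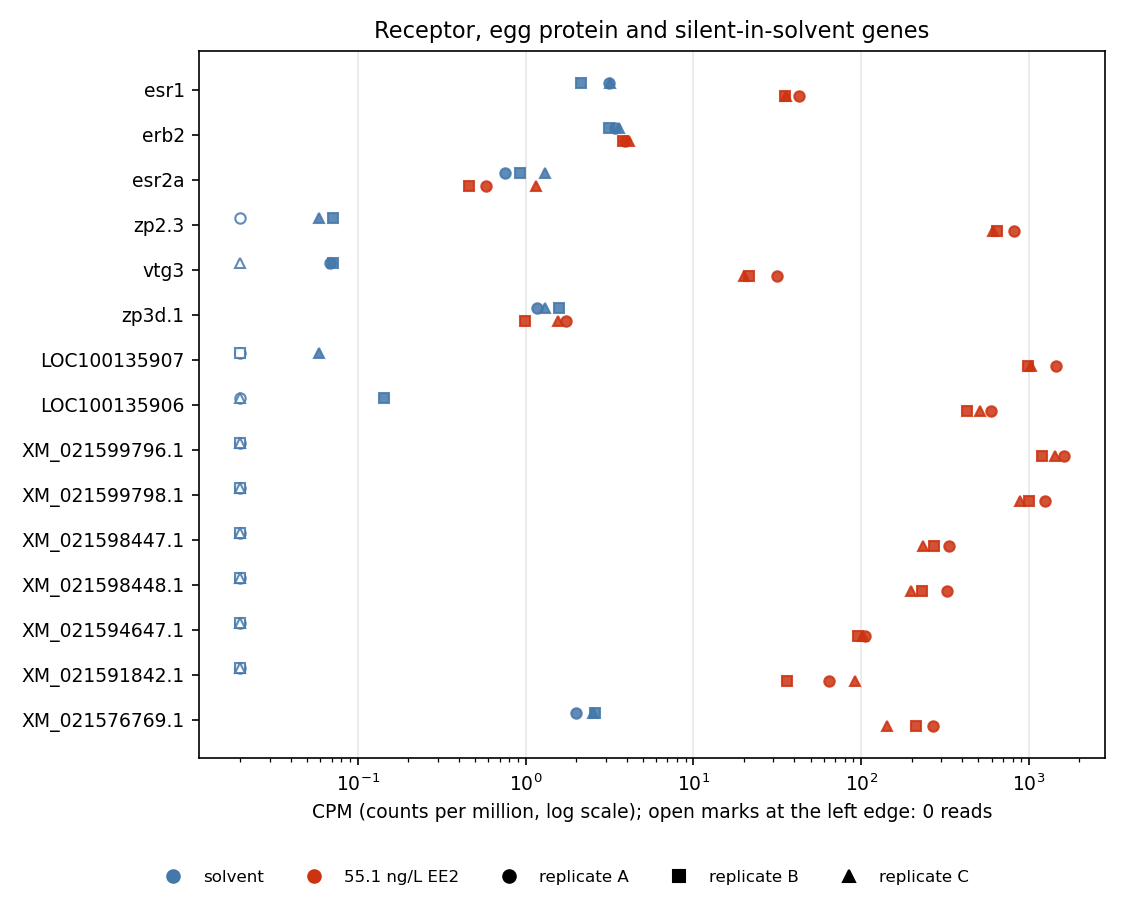
Level in CPM (horizontal log axis) of receptor and egg protein genes and of genes near 0 in solvent, one mark per library, blue for solvent and red for 55.1 ng/L, with shapes for replicates A, B and C. Open marks at the left edge are libraries with 0 reads. The groups lie apart for esr1, zp2.3, vtg3 and the genes without a symbol, close together for erb2, and overlap for esr2a and zp3d.1.

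Most of the abundant estrogen-switched RNA came from genes that the annotation leaves unnamed. Of the 107 higher genes, 11 had no read in any solvent library and 9 had 1 to 3 reads in all. Summed, these 20 genes made up 0.137, 0.573 and 0.532 CPM in solvent and 6667, 4998 and 5173 CPM at 55.1 ng/L, or 0.615%, 0.470% and 0.482% of the total estimated counts of each exposed library. Transcript XM_021599796.1 went from 0 reads in all solvent pools to 1610.1, 1190.2 and 1429 CPM, at least 21200-fold higher with 3 reads over the solvent group as the floor. Transcript XM_021599798.1, also at 0 in solvent, reached 1250.0, 1004 and 883 CPM, at least 15900-fold higher. Locus LOC100135907 had 1 solvent read, in replicate C, and 1443, 990.0 and 1027 CPM when exposed, a ratio of 52400 (95% counting interval 9400 to 2070000). Per length, LOC100135907 (1188 ± 222 TPM, a level scaled to length and library; SD, n = 3), XM_021599798.1 (1094 ± 168 TPM) and zp2.3 (570.4 ± 74.4 TPM) lay above XM_021599796.1 (359 ± 43.2 TPM), and vtg3 was far lower at 7.60 ± 1.74 TPM.

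Locus LOC100135906 had 2 solvent reads, both in replicate B, and 597, 430.1 and 513 CPM at 55.1 ng/L, a ratio of 11600 (95% counting interval 3210 to 95800). Transcripts XM_021598447.1, XM_021598448.1 and XM_021598449.1 were at 0 in every solvent pool and at least 4270-, 3830- and 417-fold higher when exposed. Transcript XM_021594647.1 (at least 1530-fold higher) was even across pools, with 106, 95.9 and 103 CPM, while XM_021591842.1 (at least 941-fold higher) varied, with 64.5, 36.4 and 91.7 CPM. In the 6-library fit XM_021591842.1 missed the threshold (adjusted p = 0.067). A weaker member, XM_021566256.1 (3.51, 17.4 and 4.62 CPM; adjusted p = 0.0455), missed the threshold when solvent replicate A (0.168), B (0.17) or C (0.112), or 55.1 ng/L replicate B (0.109) or C (0.0612), was left out. Reads of near-identical copies can be shared out among them by the pseudoaligner, so the split between these transcripts is uncertain.

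Other genes were already active in solvent and rose strongly. Transcript XM_021576769.1 went from 1.99, 2.58 and 2.54 CPM to 267, 212 and 142 CPM (log2 fold change 6.44, SE 0.34, adjusted p = 1.64e-07). Locus LOC100135938 went from 9.54, 7.03 and 9.93 CPM to 170.4, 142 and 150.2 CPM (log2 fold change 4.12, adjusted p = 3.2e-07), and both of its transcripts passed on their own, by 4.35 and 3.89. The groups were wide apart for both. LOC110529383 was abundant without exposure and moved from 106, 93.3 and 116 CPM to 257, 308 and 243 CPM (log2 fold change 1.36, SE 0.17, adjusted p = 0.00144).

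Among genes with a symbol, 3 that rose handle inositol, nucleosides or amino acids. The level of miox, which oxidises inositol to glucuronate, was 8.93, 7.67 and 12.4 CPM in solvent and 48.8, 50.7 and 38.7 CPM at 55.1 ng/L (log2 fold change 2.25, SE 0.30, adjusted p = 0.00255). The purine nucleoside phosphorylase gene pnp4b went from 1.72, 2.01 and 3.49 CPM to 15.2, 13.2 and 12.4 CPM (2.48, SE 0.32, adjusted p = 0.00241). Both rose in all 3 exposed pools by amounts that their solvent spread did not approach. The amino acid transporter slc6a14 was uneven, with 0.412, 0.573 and 0.532 CPM in solvent but 13.9, 2.97 and 1.57 CPM when exposed, so that replicate A held most of the signal. Its log2 fold change was 3.59 (SE 0.66, adjusted p = 0.0298) and 2.16 without that library. Leaving out solvent replicate A (0.163), B (0.14) or C (0.0952) ended the call. The list of inositol, nucleoside and amino acid handling genes, like all gene lists used here, was drawn up with earlier results of these data known. Of its 27 tested members these 3 rose (11.1%, against 0.228% of all genes tested) and none fell, with a median log2 fold change of -0.05. Lists drawn up in this way, including those described above and below, give no support of their own to a shared role. The paralogue pnp4a lay lower in all exposed pools and did not pass (-0.59, SE 0.21, adjusted p = 0.327) and was singled out after its values were seen.

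Other genes with a symbol rose as well. The level of fd6d, a fatty acyl desaturase, was 29.1, 28.2 and 27.1 CPM in solvent and 92.1, 95.5 and 80.0 CPM at 55.1 ng/L (log2 fold change 1.67, SE 0.13, adjusted p = 1.44e-05). The level of bhmt, which remethylates homocysteine with betaine, was 46, 37.8 and 44.5 CPM in solvent and 131, 129 and 126 CPM when exposed (1.59, SE 0.23, adjusted p = 0.00467). The small GTPase gene rasd1 rose by 1.77 (adjusted p = 0.00531, or 0.0778 in the 6-library fit) and the O-glycosylation enzyme galnt14 by 1.06 (adjusted p = 0.00961), the latter lost without solvent replicate B (0.0621) or C (0.0532). The lectin receptor gene cd209, a myeloid cell marker in mammals, went from 7, 7.74 and 11.5 CPM to 51.8, 35.7 and 41.8 CPM (2.29, SE 0.29, adjusted p = 0.00185). No other of 30 tested immune genes was called higher, and 11 of the 30 had a log2 fold change above 0 and 19 below.

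**Figure D3:**
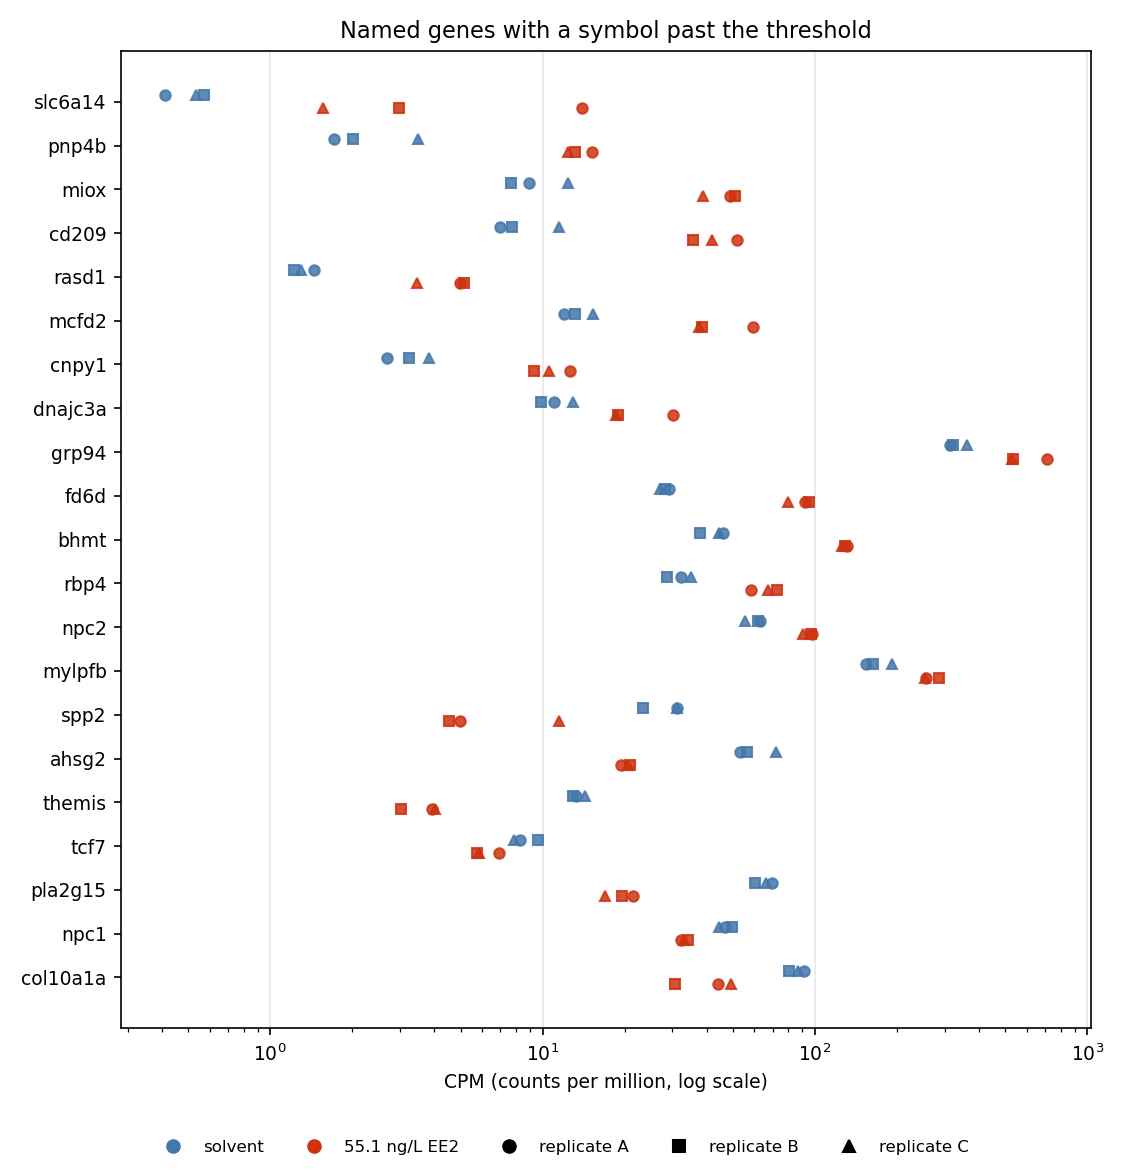
Level in CPM (horizontal log axis) of 21 genes with a symbol past the threshold, one mark per library, blue for solvent and red for 55.1 ng/L, with shapes for replicates A, B and C. The top 14 genes rose and the lower 7 fell, and the groups do not overlap for any of them; the red circle of replicate A stands apart for slc6a14.

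Genes of protein folding and export in the endoplasmic reticulum rose in part. Of 49 tested members of that list, 3 rose (6.12%, against 0.228% of all genes tested) and none fell, and the median log2 fold change was 0.04. In 11 members all exposed pools lay above all solvent pools (22.4%, against 7.58% of all genes tested). That share was also high in other lists, at 36.4% for skeletal muscle, 30.0% for respiratory chain and 27.0% for ribosomal protein genes. It was 0% for erythrocyte and cell cycle genes. The cargo receptor subunit mcfd2, which with lman1 carries secreted proteins to the Golgi, went from 12, 13.1 and 15.4 CPM to 59.4, 38.4 and 37.6 CPM (log2 fold change 1.74, SE 0.23, adjusted p = 0.00267, or 0.067 in the 6-library fit). Its partner lman1 changed by 0.13 (SE 0.09, adjusted p = 0.623). The canopy family gene cnpy1 rose by 1.73 (SE 0.20, adjusted p = 0.000875). The co-chaperone dnajc3a rose from 11.0, 9.89 and 12.9 CPM to 30.1, 18.9 and 18.6 CPM (1.00, SE 0.19, adjusted p = 0.0393), a call that ended when solvent replicate A (0.169), B (0.198) or C (0.0557) or 55.1 ng/L replicate A (0.107) was left out.

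Outside that list, grp94, the HSP90 family chaperone of the endoplasmic reticulum, had one of the widest gains in CPM, from 313, 321 and 363 CPM to 710.1, 532 and 528 CPM (log2 fold change 0.83, SE 0.12, adjusted p = 0.0041). It missed the threshold in the 6-library fit (0.153). The misfolded-protein lectin os9 rose by 0.45 (adjusted p = 0.00939). Within the list, the disulfide isomerase pdia3 and the calreticulin calr3a lay higher in every exposed pool without passing, each by 0.42 (adjusted p = 0.234 and 0.0621). Both were singled out after their values were seen. Of the 49 tested members, 18 had a log2 fold change below 0. In 1 member all exposed pools lay below all solvent pools. Replicate A was the highest exposed pool for mcfd2, cnpy1, dnajc3a and grp94.

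Replicate A was also highest more widely. It held the highest exposed level in 69 of the 107 higher genes (64.5%), against 35.1% of all genes tested, and replicate C in 10 (9.35%). In the 68 lower genes replicate A held the lowest exposed level in 25 (36.8%, against 35.8% of all genes) and the highest in 31 (45.6%, against 35.1%). Summed, the 107 higher genes made up 1.05%, 0.863% and 0.841% of the total estimated counts of the exposed libraries and 0.209%, 0.206% and 0.211% of those of the solvent libraries. The cytosolic ribosomal protein list was likewise highest in replicate A, at 22417 CPM against 19694 and 18516 CPM in replicates B and C and 15162 to 19140 CPM in solvent. A fit without 55.1 ng/L replicate A called 148 genes, 109 of them among the 175 (62.3%). All 175 kept their sign, but their groups did not overlap, so omitting a library could hardly have reversed it. How much the difference of replicate A from the other exposed pools contributes to the results was not tested.

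The few called genes on the list of liver-made plasma proteins moved in both directions. Of 40 tested members of that list, 1 rose (2.5%, against 0.228% of all genes tested) and 2 fell (5%, against 0.145%). All exposed pools lay above all solvent pools in 17.5% of members and below them in 17.5%, against 7.58% and 7.96% of all genes tested. The median log2 fold change was 0.05, and the summed level was 2755 to 3744 CPM in solvent and 2543 to 3164 CPM at 55.1 ng/L. The retinol carrier gene rbp4 went from 32.3, 28.5 and 35 CPM to 58.1, 72.3 and 67 CPM (log2 fold change 1.04, SE 0.18, adjusted p = 0.0236). Leaving out solvent replicate A (0.103), B (0.136) or C (0.0532), or 55.1 ng/L replicate B (0.109) or C (0.0676), ended that call. The secreted phosphoprotein gene spp2 went from 31.2, 23.3 and 31.2 CPM to 4.97, 4.55 and 11.5 CPM (-2.05, SE 0.30, adjusted p = 0.0056; 0.158 in the 6-library fit). The fetuin gene ahsg2, whose product binds calcium phosphate in mammalian plasma, went from 52.9, 56.1 and 71.8 CPM to 19.4, 21.0 and 20.6 CPM (-1.57, SE 0.27, adjusted p = 0.0225). For ahsg2 the adjusted p was 0.0516 to 0.0979 without each library in turn, so every omission ended the call, although its groups were far apart. The same held for leg1, a liver-enriched gene in zebrafish (-1.60, SE 0.30, adjusted p = 0.0314), at 0.0546 to 0.115.

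The called lysosomal lipid genes were split. Of 28 tested lysosomal genes, 1 rose (3.57%, against 0.228% of all genes tested) and 2 fell (7.14%, against 0.145%), with a median of 0.04. The phospholipase gene pla2g15 went from 69.6, 60.2 and 65.9 CPM to 21.4, 19.5 and 17.0 CPM (log2 fold change -1.76, SE 0.28, adjusted p = 0.0106), a call lost without 55.1 ng/L replicate B (0.0575) or C (0.0539). Of the pair of proteins that move cholesterol out of lysosomes, npc2 rose from 63.0, 61.6 and 55.2 CPM to 97.9, 96.4 and 90.5 CPM (0.66, SE 0.10, adjusted p = 0.00467; 0.067 in the 6-library fit). Its partner npc1 fell from 46.8, 49.5 and 44.5 CPM to 32.2, 34.3 and 33.1 CPM (-0.50, SE 0.09, adjusted p = 0.0323), and that call was lost without any one of the 6 libraries (0.0507 to 0.175). None of 15 cholesterol synthesis and uptake genes passed, but 13 had a log2 fold change above 0 (median 0.11), against 48.0% of all genes tested.

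Of 30 tested immune genes, 2 with a role in T cells fell (6.67%, against 0.145% of all genes tested). The level of themis, which acts in thymocyte selection in mammals, was 13.3, 12.9 and 14.3 CPM in solvent and 3.94, 3.03 and 4.04 CPM at 55.1 ng/L (log2 fold change -1.88, SE 0.21, adjusted p = 0.000551), and its call held without each library and in the 6-library fit (0.0103). The T cell transcription factor gene tcf7 went from 8.24, 9.61 and 7.86 CPM to 6.94, 5.73 and 5.85 CPM (-0.47, SE 0.09, adjusted p = 0.0463), a call lost without solvent replicate A (0.122) or B (0.32) or 55.1 ng/L replicate B (0.228) or C (0.149). Of the list's other tested T cell genes, none passed. The receptor gene recombinases rag1 (-2.27, SE 0.67, adjusted p = 0.222) and rag2 (-0.72, SE 0.27, adjusted p = 0.359) and the T cell receptor subunit cd3e (-0.47, SE 0.24, adjusted p = 0.504) lay lower in every exposed pool. The groups overlapped for cd3z (-0.15, adjusted p = 0.876), cd8a (-0.26, adjusted p = 0.953) and il7r (-1.10, adjusted p = 0.541). The coreceptor gene cd4-1 lay the other way, at 3.02, 2.51 and 2.48 CPM in solvent and 5.40, 3.43 and 4.12 CPM when exposed (0.69, adjusted p = 0.227). Of the 30 immune genes 1 rose (3.33%, against 0.228% of all genes tested), namely cd209. A log2 fold change above 0 was seen in 11 of them, against 48.0% of all genes tested. The median was -0.27 (-0.08 in the 6-library fit).

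Bone genes included col10a1a, a collagen of mineralising cartilage and bone, which went from 91.0, 80.4 and 86.7 CPM to 44.0, 30.7 and 49.1 CPM (log2 fold change -1.06, SE 0.16, adjusted p = 0.00838). The call was lost without solvent replicate A (0.0516). It was the one called member of 23 tested cartilage and bone genes (4.35%, against 0.145% of all genes tested lower), with a list median of -0.14. Of the 23, 15 had a log2 fold change below 0 and 8 above 0. Their summed levels overlapped, at 1586 to 2338 CPM in solvent and 1435 to 2025 CPM at 55.1 ng/L. The osteoblast transcription factor sp7, named after its values were seen, lay lower in all exposed pools without passing (-0.72, SE 0.17, adjusted p = 0.117). The gene tmem119a, whose mammalian counterpart acts in osteoblasts, fell by 1.03 on the log2 scale (adjusted p = 0.0225), a call lost without solvent replicate A (0.109) or C (0.0659) or 55.1 ng/L replicate B (0.122) or C (0.0676).

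Falls of less than 2-fold included nup37 of the nuclear pore (-0.54), the kinetochore gene cenps (-0.68), the DNA polymerase subunit pold3 (-0.47), the nuclear import factor ntf2 (-0.44) and thoc7 of the mRNA export complex (-0.39), with adjusted p-values of 0.0183 to 0.0455. Each lost its call without at least 5 of the 6 libraries. None of 33 cell cycle genes passed, but 30 had a log2 fold change below 0, where 48.0% of all genes tested lay above 0. The list median was -0.25, against -0.01 over all genes. In 11 of the 33 (33.3%) all exposed pools lay below all solvent pools, against 7.96% of all genes tested.

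Among genes that the annotation leaves unnamed, the widest falls in CPM were in XM_021603015.1 (404, 360.1 and 329 CPM to 69.0, 63.9 and 46.3 CPM; log2 fold change -2.61, SE 0.38, adjusted p = 0.00505) and in the non-coding XR_002472325.1 (151, 134 and 139 CPM to 22.3, 24.8 and 24.7 CPM; -2.56, SE 0.33, adjusted p = 0.00206). Transcript XM_021616890.1 went from 1.37, 1.79 and 4.38 CPM to 0 reads in every exposed pool, at least 35.8-fold lower. Summed, the 68 lower genes made up 0.249% to 0.262% of the total estimated counts of the solvent libraries and 0.0974% to 0.0987% of the exposed ones. All 175 called genes, higher and lower, had groups that did not overlap. They were called on these same levels, so this adds no separate support. Among all genes tested, 7.58% lay higher and 7.96% lower in that way.

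**Figure D4:**
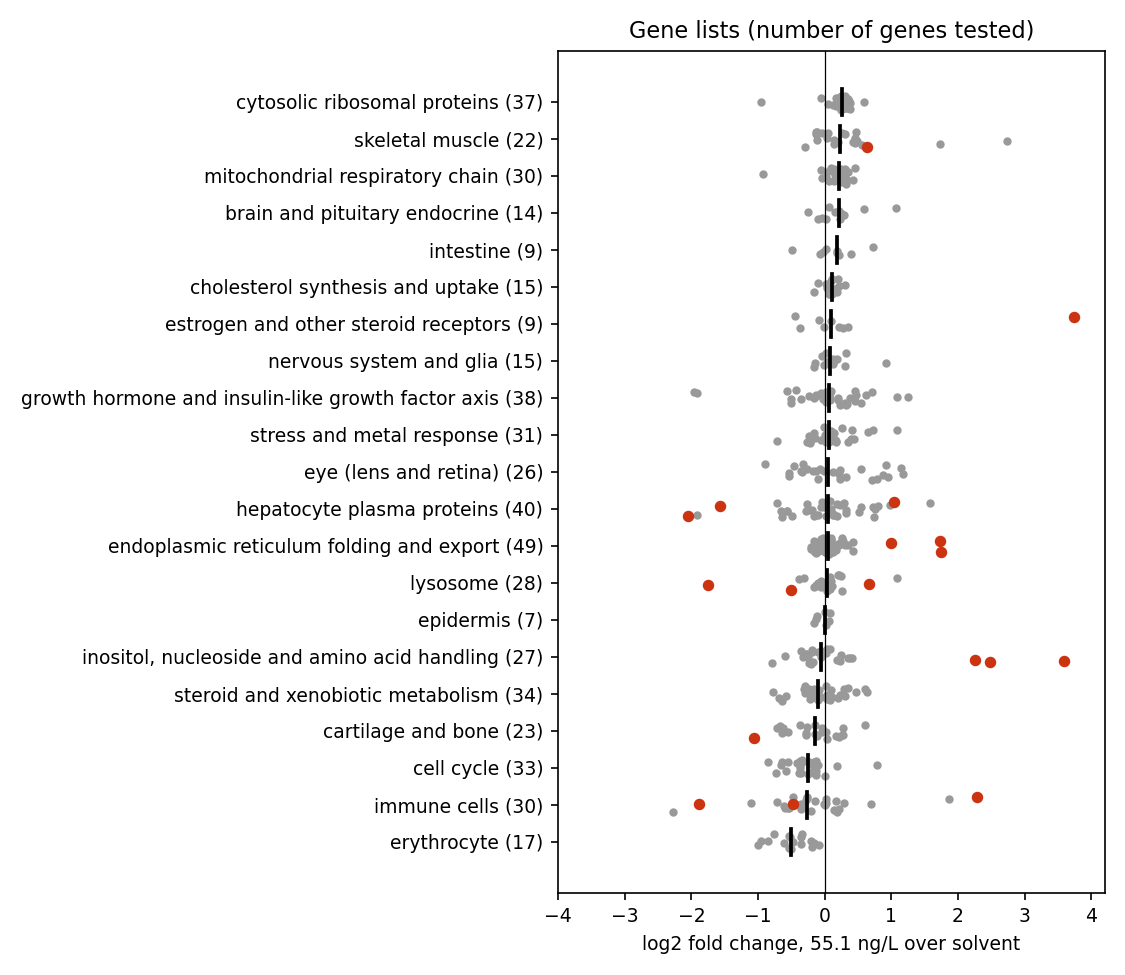
Log2 fold change at 55.1 ng/L over solvent (horizontal axis) of the tested members of 21 gene lists, one point per gene, red where past an adjusted p of 0.05, with a black bar at the list median and the number of genes in brackets. The medians run from -0.51 for erythrocyte genes to 0.27 for ribosomal protein genes, and most lists hold no called gene.

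Among the tissue marker lists, few members passed. Over all genes tested, 48.0% had a log2 fold change above 0. All 17 erythrocyte genes had one below 0 (median -0.51) and none passed; their summed level was 1255 to 1454 CPM in solvent and 953 to 1240 CPM at 55.1 ng/L. The transferrin receptor gene tfr1a, singled out after its values were seen, was the nearest, with 145, 119 and 132 CPM against 91.9, 85 and 96.9 CPM (-0.53, adjusted p = 0.0599). Skeletal muscle genes summed to 22011, 22429 and 29118 CPM in solvent and 33803, 33848 and 34882 CPM at 55.1 ng/L. Of them, 1 of 22 rose past the threshold (4.55%, against 0.228% of all genes tested). This was the fast-muscle light chain mylpfb, at 155, 164 and 191 CPM against 256, 285 and 253 CPM (0.64, SE 0.13, adjusted p = 0.049), a call lost without any one library. Of 37 ribosomal protein genes 35 and of 30 respiratory chain genes 27 had a log2 fold change above 0, with none called. Epidermis (7 genes), nervous system (15), eye (26), intestine (9) and pancreas (1) markers were detected with none called. The eye genes summed to 537, 555 and 568 CPM in solvent and 646, 652 and 672 CPM at 55.1 ng/L. All exposed pools lay above all solvent pools in 30.8% of eye genes, against 7.58% of all genes tested. They lay below in 7.69%, against 7.96%. Of the 26 eye genes, 13 had a log2 fold change above 0 and 13 below, with a median of 0.06 (-0.01 in the 6-library fit). How far tissue proportions contribute to the results above was not tested.

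No member passed in the lists of steroid and xenobiotic metabolism (34 tested, median -0.11), the growth hormone and insulin-like growth factor axis (38, median 0.07), brain and pituitary hormones (14, median 0.21) or stress and metal response (31, median 0.06). At an unadjusted p of 0.05 edgeR's test gave 5106 genes over the whole table (10.9%). DESeq2 called 37 list members among 786 genes called in all, against 20 among 175 here.

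The response at 55.1 ng/L was next set directly against the nearest lower concentrations. Of the 175 genes, 3 differed between 55.1 and 16.3 ng/L and 9 between 55.1 and 6.22 ng/L, where 21 (0.0447%) and 18 (0.0383%) of all genes tested passed. Those above 6.22 ng/L included XM_021562346.1, at 73.9, 37.7 and 25.9 CPM against 6.25 ± 1.79 CPM (log2 difference 2.88, SE 0.36, adjusted p = 0.0223), and LOC100136343, at 12, 9.82 and 8.00 CPM against 3.53 ± 0.748 CPM (1.49, SE 0.21, adjusted p = 0.0281). Below both lower concentrations were XM_021576127.1 and XM_021616890.1, and spp2 was below 6.22 ng/L (-1.92, SE 0.30, adjusted p = 0.0465). The 9 became 3 without 55.1 ng/L replicate A and 4 without its replicate B. They became 4 when solvent replicate A was omitted and 5 when solvent replicate B or C was. The 3 became 1 without 55.1 ng/L replicate C.

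Levels of esr1 and miox overlapped between 55.1 and 16.3 ng/L. The level of esr1 was 37.9 ± 4.27 CPM (SD, n = 3) at 55.1 ng/L against 35 ± 8.69 CPM at 16.3 ng/L and 24.3 ± 6.39 CPM at 6.22 ng/L, and its log2 difference between 55.1 and 16.3 ng/L was 0.12 (SE 0.20, adjusted p = 0.895). Every esr1 pool at 55.1 ng/L lay above those at 6.22 ng/L, without passing (0.65, SE 0.21, adjusted p = 0.515). For miox the levels at 55.1, 16.3 and 6.22 ng/L were 46.1 ± 6.48, 43.4 ± 9.06 and 42.6 ± 8.31 CPM. Its log2 difference between 55.1 and 16.3 ng/L was 0.09 (SE 0.27, adjusted p = 0.952). Falling genes differed in shape. The level of pla2g15 was 237 ± 21.9 CPM at 1.13 ng/L and 139 ± 21.5 CPM at 1.57 ng/L, above the 65.3 ± 4.74 CPM of solvent, and col10a1a was 171 ± 33.7 CPM at 1.13 ng/L against 86.0 ± 5.34 CPM in solvent. Among the 68 lower genes, 42 (61.8%) had a mean at 1.13 ng/L above that of solvent, against 50.1% of all genes tested. The solvent and 55.1 ng/L files set each transcript's effective length by one constant per library, while the other 12 files vary it by transcript, so levels set across these kinds of file also carry that difference.

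**Figure D5:**
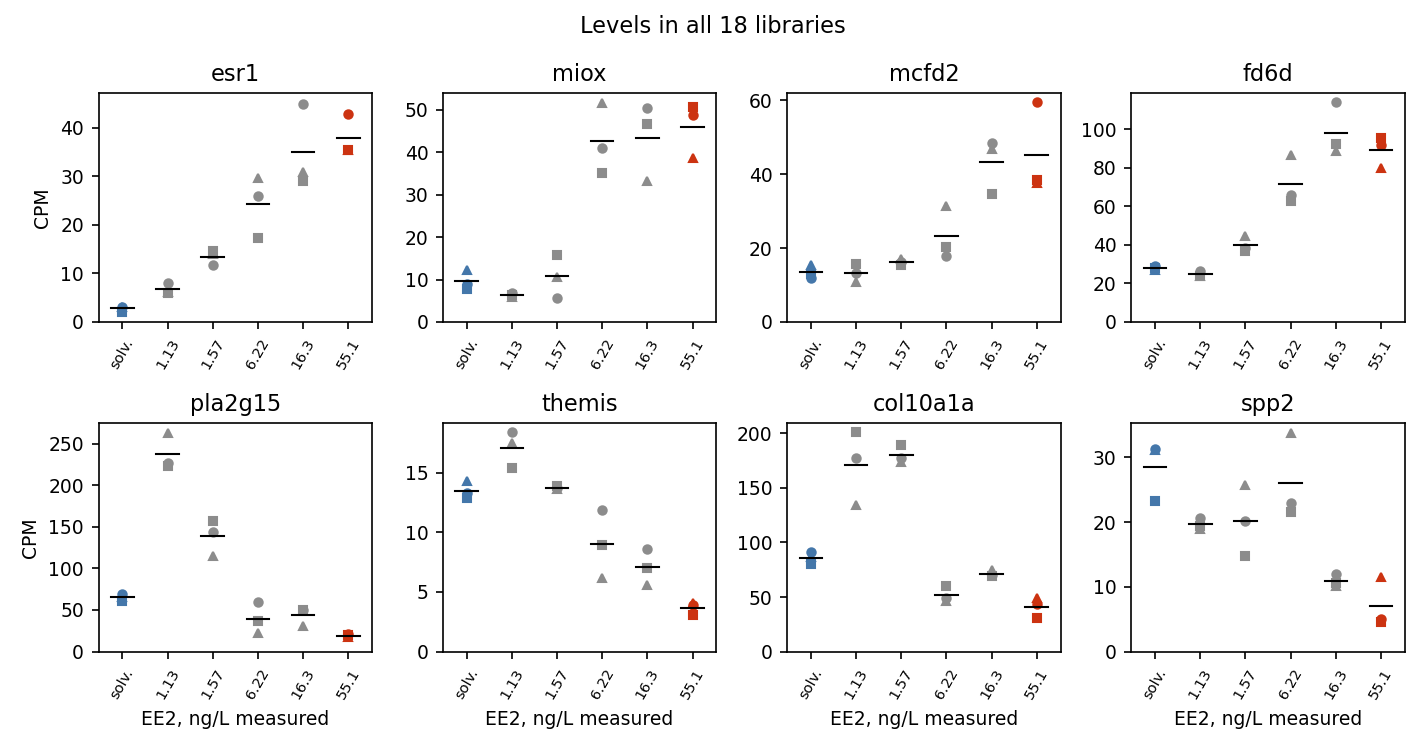
Level in CPM of 8 genes in all 18 libraries by measured EE2 concentration, with shapes for replicates A, B and C and a bar at the mean; solvent is blue, 55.1 ng/L red and the other groups, whose files handle effective length in another way, grey. The top row lies higher at 55.1 ng/L than in solvent. All pools of esr1 do so from 1.13 ng/L, of mcfd2 and fd6d from 1.57 ng/L and of miox from 6.22 ng/L. In the lower row pla2g15, themis and col10a1a have their highest mean at 1.13 or 1.57 ng/L, and spp2 has it in solvent.

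The authors' deposited table for 55.1 ng/L lists 28438 transcripts, of which 28379 carry an adjusted p and 875 (3.08%) pass 0.05, 467 higher and 408 lower. The edgeR test on single transcripts called 124 of 59811 (0.207%). Of these, 106 are in the authors' deposited table and all 106 pass there, which is 85.5% of the 124 and 12.1% of the 875. Of the 175 genes, 154 have a transcript in the authors' deposited table, and 142 have one that passes there with the same sign. For zp2.3 the authors' deposited table gives a log2 fold change of 13.93, for themis -1.89 and for pla2g15 -1.76.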

How the data were processed

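Whole-alevin RNA-seq of 18 libraries was analysed, 3 per group. Per the labels' protocols, libraries were poly(A)-selected and directional; the submitters' processing notes name Trimmomatic 0.38 for trimming, kallisto for quantification and DESeq2 for testing. The deposited files hold estimated counts and TPM per transcript, with length and effective length. The authors' deposited comparison table holds mean normalised counts (a signal scale), log2 fold changes with errors, a test score, and p-values. The transcriptome release is not given in the sources used here.

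Of 79244 transcripts, 42410 (53.5%) matched RefSeq genes of USDA_OmykA_1.1 by accession without version and were summed by gene; the others stayed single, giving 61973 features. Estimated counts were rounded, filtered with filterByExpr, TMM-normalised and tested with edgeR 4.0.16 (R 4.3.3) in one fit of 18 libraries with 12 residual degrees of freedom, the contrast being 55.1 ng/L minus solvent. Adjusted p-values are Benjamini-Hochberg over 46999 genes, with a threshold of 0.05. CPM, ratios and lower bounds use TMM effective library sizes; percent shares use the total estimated counts. SE is the absolute log2 fold change over the square root of F. The procedure was tested on simulated data. Alternatives were RLE size factors, DESeq2 1.42.0, no filter, 6 libraries only, a replicate block, single transcripts, removal of a length trend, and omission of each library. A further 169 ng/L group of the design text was not analysed here.

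Genes were named by rule: the 12 largest rises and falls with at least 1 CPM and separate groups, the 15 largest each way with a symbol, called members of 23 gene lists, all receptor and egg genes, and the 10 largest CPM changes each way. From these the text describes those with a known role and the most abundant others. Further genes, such as os9, lman1, pdia3, calr3a, LOC100135938, LOC100136343 and XM_021562346.1, were added outside these rules with their values known. Just inside the threshold lay XM_021583238.1 (adjusted p = 0.0497) and just outside it si:ch1073-126c3.2 (0.0505). The members and lists were chosen with earlier results of these data known. Whether same-lettered libraries pair was checked in their deviations from group means. Same-lettered libraries of solvent and exposed alevins showed no positive correlation. With so few libraries per group, whether letters share a tank or batch was not tested by this.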

Additional observations from a re-analysis of the deposited data

How the results depend on the processing

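All 175 called genes that an alternative tested kept their sign in it. Since their groups did not overlap in CPM, omitting a library could hardly reverse a sign, so the kept signs add no separate support there. The count was 173 with RLE size factors, 161 without the filter, 186 with a length trend removed and 124 for single transcripts (42 lower). Only the 6 libraries gave 59 (41 higher, 18 lower), and DESeq2 786 (429 higher, 357 lower), which held 174 of the 175. Leaving out each library gave 87 to 152 (61 to 104 higher, 25 to 59 lower). Called list members were 20, against 11 with 6 libraries, 37 with DESeq2 and 12 to 18 without each library. Single transcripts numbered 31 with 6 libraries and 1092 with DESeq2. In the main fit 3 of the 175 genes differed from 16.3 ng/L and 9 from 6.22 ng/L. Over all genes tested 21 and 18 did. Without each library in turn the 3 and 9 became 1 to 4 and 3 to 6. DESeq2 gave 34 and 67. Same-lettered solvent and 55.1 ng/L libraries correlated at -0.0262 to -0.0065 in their deviations, and libraries of different letters at -0.0140 to 0.0310. With 3 libraries per group, whether letters share a tank or batch was not tested by this. A replicate block gave 132 genes (84 higher, 48 lower) and 2 differing from 6.22 ng/L. Without each library in turn, pgrmc1 ranged from -0.084 to 0.047 and zp3d.1 from -0.083 to 0.30 in log2 fold change, crossing 0. The causes were not tested. Fold changes of genes with few solvent reads are limited by depth.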
